A study of Mus musculus with 5 samples.

Results

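The genes of mouse chromosome 8 were followed along the chromosome in 5 libraries of embryonic stem (ES) cells. Members were chosen by position and level: a gene annotated on chromosome 8 with a mean deposited value of at least 20 over the 5 libraries, less a set of genes left out by name. Of 24016 genes in the table, 1143 lie on chromosome 8, 679 of these reached the level, 19 of them were left out by name, and 660 remained as members. The 464 genes below the level are not described. The members just above the level were Gnao1 (mean value 20.23), Tppp3 (20.59) and Nkx6-3 (20.64), and the genes just below it were 6430573F11Rik (19.76), Ncan (19.71) and Nek5 (19.67). The level of a gene over all libraries chose the members, so it is not a result here, and the chromosome was taken up with earlier results of these data known, so its median differences are a description with no test. All 660 members passed the filter on low reads that preceded the tests.

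RNA was sequenced from ES cells of the strain NOD (replicates 1 and 5), which develops autoimmune diabetes spontaneously, from NZB, another autoimmune-prone strain, from v6.5, a line of a C57BL/6 x 129S4/SvJae cross, and from B6 (C57BL/6), 1 library each for the last 3. The medium of every line held a MEK and a GSK3 inhibitor (2i) and no feeder cells were used, so no treatment separated the lines. The command kept in the header of the table names 2 B6 directories and none for v6.5, so v6.5 below means the library labelled v6.5, and the directory given for NOD replicate 5 joins the numbers 5 and 6. Whether that library holds 1 line is not known. Every strain other than NOD is thus represented by 1 library. The p-values rest only on the spread between NOD replicates 1 and 5, moderated across genes, and hold no spread within the other strains. The recovered reads were 7713133 and 21387796 in NOD replicates 1 and 5, 9582669 in NZB, 8594283 in v6.5 and 13431741 in B6. Rn45s, the precursor of ribosomal RNA, took 14.3% and 1.95% of the reads in NOD replicates 1 and 5, 1.98% in NZB, 9.75% in v6.5 and 41.4% in B6. For this reason the values below, unless called reads, were divided by a composition factor (TMM) and are called normalised reads. The 8 markers of ES cells were present in every library and summed to 23170 to 42350 normalised reads, none at 0. Single markers differed between libraries in both directions. Tdgf1 had 153.9 in NOD replicate 1 and 9499 in B6, while Pou5f1 had 6697 and 3549.

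Mouse ES cells in culture can gain or lose whole chromosomes, and a gain of chromosome 8 is among the changes most often described. When a whole chromosome is gained, transcripts of most of its genes are commonly described to increase together, each by a modest amount, while single genes still vary with strain, culture and regulation. Median differences over many genes of a chromosome are therefore often read beside those of the other chromosomes. The files hold no DNA measurement, so copy number was not measured.

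Most results below are medians over the 660 members, and no single sequence carries them. The neighbouring metallothionein genes Mt2 and Mt1 were below B6 in v6.5, while the chromosome as a whole was higher. After the median of the other autosomes was taken off, 570 of 660 members (86.4%) were higher in v6.5 than in B6. The pair was thus not alone in being lower. The proteins encoded by the pair bind zinc and other metals, and the genes are switched on by metals through metal response elements. Their promoters (RefSeq, GRCm38.p6, plus strand, 300 bases with 50 bases past the start of the gene) lie at chr8:94172368-94172667 for Mt2 and chr8:94178839-94179138 for Mt1. Capitals mark TGCACNC or TGCGCNC, forms of the core of that element, searched on both strands.
Mt2: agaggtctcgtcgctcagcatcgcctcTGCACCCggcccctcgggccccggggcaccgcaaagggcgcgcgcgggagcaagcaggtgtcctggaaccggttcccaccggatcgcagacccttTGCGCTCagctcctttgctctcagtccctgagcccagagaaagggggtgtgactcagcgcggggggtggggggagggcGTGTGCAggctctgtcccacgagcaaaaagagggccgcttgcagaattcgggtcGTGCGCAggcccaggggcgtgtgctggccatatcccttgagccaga
Mt1: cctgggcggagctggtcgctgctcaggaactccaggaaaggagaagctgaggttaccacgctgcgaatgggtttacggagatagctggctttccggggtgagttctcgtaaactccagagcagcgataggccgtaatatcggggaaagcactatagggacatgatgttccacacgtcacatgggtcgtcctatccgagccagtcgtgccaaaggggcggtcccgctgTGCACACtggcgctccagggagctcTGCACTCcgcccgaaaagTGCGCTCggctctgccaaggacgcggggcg
Mt2 held 4 matches and Mt1 held 3. Of 27025 mouse promoters of this length 25.6% held at least 1 match, 2.0% held at least 3 and 0.503% at least 4. Of the 465 promoters of members, 38.3% held at least 1 and 1.51% at least 4. A match is a description of the sequence and not a measured site. A RefSeq promoter was found for 465 of the 660 members, with a median of 22 CG dinucleotides per promoter, near the 21 of 8990 genes of the other autosomes. The median over all promoters was 7.

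The question for each line was whether the genes of chromosome 8 stood higher or lower than genes elsewhere in the genome. The level of a line was taken as the median, over the members, of the log2 normalised value (plus 1) in that library minus the median of the other 4 libraries, less the same median over 11295 genes of the other 18 autosomes. Chromosome 8 stood at 0.28 and 0.29 in NOD replicates 1 and 5, at -0.17 in NZB, at 0.17 in v6.5 and at -0.55 in B6, all on the log2 scale. B6 was the lowest and both NOD lines the highest. Among the 19 autosomes chromosome 8 ranked 1 in both NOD lines and 3 in v6.5, counted from the highest, and last in NZB and in B6. In B6 the other 18 autosomes lay between -0.07 and 0.21, with an SD of 0.07, so that chromosome 8 was far outside their range. In NOD replicate 1 the others lay between -0.27 and 0.14 and in NOD replicate 5 between -0.29 and 0.08. In NZB the level of chromosome 8 was close to that of chromosome 6, the lowest of the others at -0.13. In v6.5 chromosome 6 was higher still than chromosome 8, at 0.41. Members above 0 numbered 443 (67.1%) in replicate 1 of NOD, 455 (68.9%) in replicate 5, 238 (36.1%) in NZB, 392 (59.4%) in v6.5 and 129 (19.5%) in B6.

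**Figure D1:**
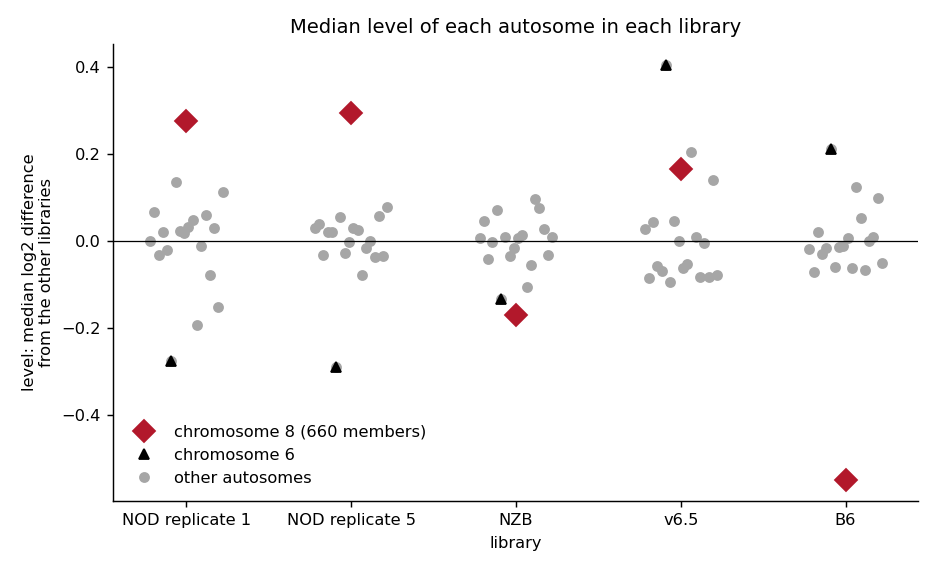
Level of each of the 19 autosomes (vertical axis, median log2 difference of a library from the median of the other 4, less that of the other autosomes) in the 5 libraries (horizontal axis). Red diamonds are chromosome 8, black triangles chromosome 6 and grey points the others, and chromosome 8 in B6 stands alone at -0.55.

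Because a level is set against the other 4 libraries, a low B6 raises every other line. Pairs of libraries were therefore also compared directly, again less the median of the other autosomes. Members differed by a median of 0.66 between NOD replicate 1 and B6, by 0.65 between NOD replicate 5 and B6, by 0.56 between v6.5 and B6 and by 0.33 between NZB and B6. These are folds of 1.58, 1.57, 1.47 and 1.25. For scale, a ratio of 3 to 2 is 0.585 on the log2 scale. Copy number was not measured, so the cause of the differences was not tested. Each of these pairs shares the 1 B6 library, so the differences are not independent. NOD replicate 1 and NOD replicate 5 differed by a median of only -0.02, and both lines were above NZB, by 0.35 and 0.31. Against v6.5 the NOD lines were close, at 0.06 for replicate 1 and 0.13 for replicate 5, where the other autosomes ranged from -0.50 to 0.18 and from -0.54 to 0.17. NZB was below v6.5 by a median of -0.22, with chromosome 6 further below, at -0.42. In order of median difference from B6 the lines were both NOD lines, v6.5, NZB and B6. Neither step next to v6.5, from the NOD lines or to NZB, was outside the range of the other chromosomes, while both NOD lines differed from NZB, and every line from B6, by more than any other chromosome did.

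With the NOD lines taken as 1 mean, the members stood at 0.63 (log2) against B6, a fold of 1.54, and 517 of 660 (78.3%) lay above the median of the other autosomes, where 50.0% of other genes lie. The interquartile range of the members was 0.11 to 1.23, against -0.61 to 0.60 for the genes of the other autosomes. No other autosome was as far from 0, the extremes being chromosome 6 at -0.39 and chromosome 19 at 0.18. For NOD against NZB the median was 0.32, with 492 members (74.5%) higher, and for NOD against v6.5 it was 0.08, with 355 (53.8%) higher, where chromosome 8 ranked 10 by size. The member values of v6.5 against B6 were the most even. Their median was 0.56, 570 members (86.4%) were higher, and the interquartile range was 0.24 to 0.84, against -0.32 to 0.28 for the other genes. The other autosomes in that comparison lay between -0.06 and 0.12. NZB against B6 gave 0.33 with 439 members (66.5%) higher.

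**Figure D2:**
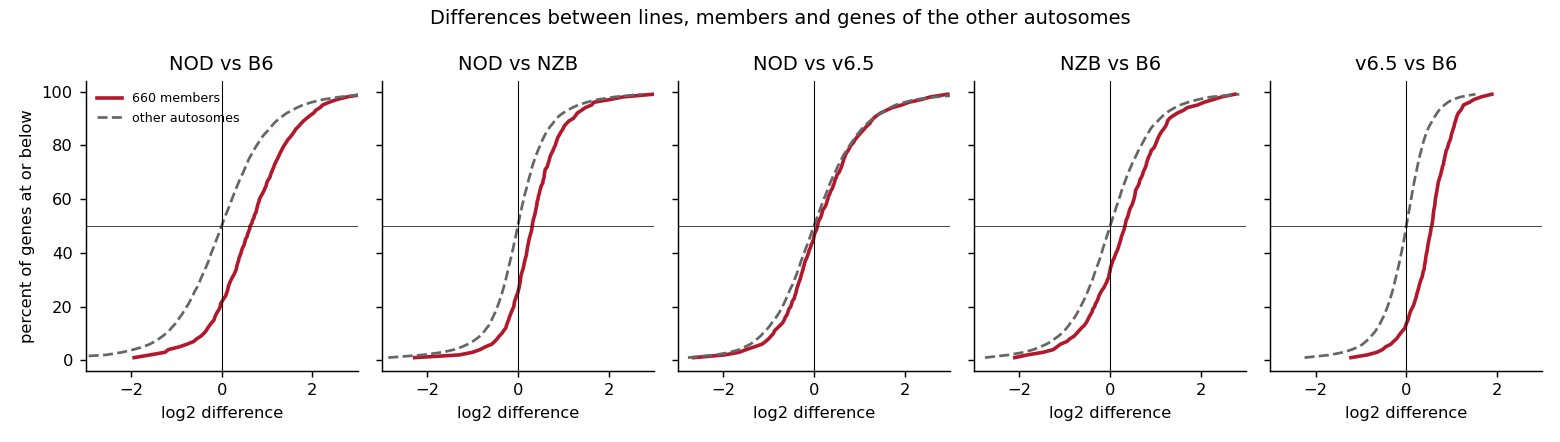
Percent of genes (vertical axis) at or below a log2 difference (horizontal axis) in 5 comparisons of lines, with the 660 members in red and the genes of the other 18 autosomes dashed. The members' curve lies to the right of the dashed curve at its middle by 0.63 for NOD vs B6 and by 0.56 for v6.5 vs B6, and by only 0.08 for NOD vs v6.5.

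NOD and v6.5 had higher medians than B6 in each band of members described here, while the lists by function given below varied more. Within 3 bands of genes by mean value, by exon length and by the GC content of the longest transcript (629 of 660 members had one), the median of NOD against B6 lay between 0.44 and 0.75 and that of v6.5 against B6 between 0.50 and 0.59. Members whose promoter held under 10 CG (54 genes) had 0.86 for NOD against B6, and those with 10 or more (411 genes) had 0.62. For v6.5 against B6 the order of these bands was reversed, with 0.49 under 10 CG and 0.57 with 10 or more. In simple read shares, the members took 5.79% and 6.30% of autosomal reads other than Rn45s in NOD replicates 1 and 5, 5.02% in NZB, 5.80% in v6.5 and 3.94% in B6. The 95% Wilson interval was 5.78% to 5.81% for NOD replicate 1 and 3.93% to 3.96% for B6, and such intervals cover counting error only. B6 was again the lowest and NZB next. The autosomal reads other than Rn45s behind these shares were 6381726 and 20233745 in NOD replicates 1 and 5, 9073041 in NZB, 7485162 in v6.5 and 7606138 in B6. The part of depth in these differences was not tested.

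The sums of fibroblast markers followed the line order only in part. The 8 fibroblast markers, all in the table, summed to 121.9 and 147.3 normalised reads in NOD replicates 1 and 5, to 7011 in NZB, to 600.4 in v6.5 and to 4901 in B6. Col1a1, the main collagen of connective tissue, had 35.05 and 47.47 in NOD, 3931 in NZB, 160.9 in v6.5 and 1868 in B6. Col1a2, Col3a1, Acta2 and Postn were also highest in NZB and B6. Thy1 was not, with 30.47 and 10.17 in NOD, 44.27 in NZB, 54.09 in v6.5 and 26.75 in B6. Dcn, another fibroblast marker, was at 0 in NOD replicate 1, NZB and v6.5, and Lum at 0 in NOD replicate 1 and v6.5. The 2 libraries with the lowest chromosome 8 level were those with the highest sums, but NZB had the higher sum of these and B6 the lower level. Whether fibroblasts were present, and what part they would have in the result, was not tested. In bulk RNA, fewer cells of a type and less RNA per cell cannot be told apart.

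Along the chromosome the members were divided into bins of 10 Mb by gene start (mm9). Of the 14 bins, 11 held at least 20 members. B6 was below 0 in all 11, between -0.72 and -0.33, and NZB was also below 0 in all 11, between -0.33 and -0.02. NOD replicate 5 was above 0 in all 11, between 0.09 and 0.44. NOD replicate 1 and v6.5 were each above 0 in 10, the exceptions being the bin from 30 to 40 Mb for NOD replicate 1 (-0.03) and the bin from 120 to 130 Mb for v6.5 (-0.03). Against B6, v6.5 was higher in all 11 bins within a narrow range, from 0.46 to 0.69. NOD against B6 was above 0 in all 11 as well but spread more widely, from 0.36 at 110 to 120 Mb, where 70.9% of 55 members were higher, to 0.96 at 120 to 130 Mb, where 88.2% of 93 members were higher. NZB against B6 ran from 0.02 in the bin from 110 to 120 Mb to 0.56 in the next one, and NOD against v6.5 from -0.26 to 0.36, with 7 of the 11 bins above 0. The thin bins held 9 members (50 to 60 Mb), 19 members (60 to 70 Mb) and 1 member, Itgb1 (130 to 140 Mb).

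A running median over 21 members in order of their start gave the same picture at finer grain. Of 640 windows, 93.1% were above 0 in NOD replicate 1 and 98.9% in NOD replicate 5, with 17.7% in NZB, 78.3% in v6.5 and 0.0% in B6. In B6 the windows ran between -1.06 and -0.08. In NZB they ran between -0.61 and 0.27, and in v6.5 between -0.39 and 0.63. Neighbouring windows share members and are not independent.

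**Figure D3:**
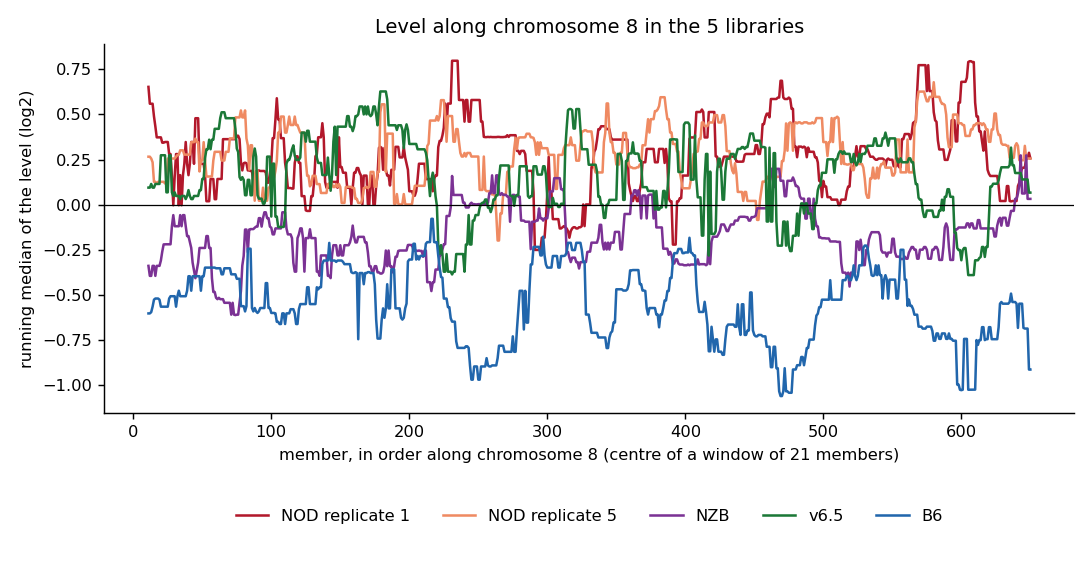
Running median of the level (vertical axis, log2) over 21 members, plotted at the centre of each window by the order of members along the chromosome (horizontal axis), 1 line per library. The B6 line stays between -1.06 and -0.08 for all 640 windows, while both NOD lines stay above 0 in most windows.

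The members with the most reads carry out general functions of dividing cells, and not all of them followed the chromosome. Lamp1, a main glycoprotein of the lysosomal membrane, had 14470 and 11260 normalised reads in NOD replicates 1 and 5, 6797 in NZB, 5536 in v6.5, against 4205 in B6. Aars, the alanyl-tRNA synthetase, had 9309 and 14850 in NOD, 4455 in NZB, 10900 in v6.5, against 5538 in B6. Ash2l, a subunit of histone H3 lysine methyltransferase complexes, had 9828 and 11490 in NOD, 8864 in NZB, 6768 in v6.5, against 6281 in B6. In these genes both NOD libraries lay above B6. Cnot1, the scaffold of the CCR4-NOT deadenylase, had 11090 and 14000 in NOD, 12870 in NZB, 21680 in v6.5, against 14280 in B6. Calr, a chaperone of the endoplasmic reticulum, had 11650 and 9925 in NOD, 9866 in NZB, 12680 in v6.5, against 13200 in B6. For Cnot1 and Calr B6 was above both NOD lines, against the direction of the chromosome, although v6.5 was above B6 for Cnot1. Fat1, an atypical cadherin, had 4064 and 5719 in NOD, 2445 in NZB, 6485 in v6.5, against 9066 in B6, the highest. Abce1, Ankrd11, Otud4 and Mcm5 completed the 10 members of highest level, and their log2 differences of NOD against B6 lay between -0.23 and 0.14. None of these 10 passed the test in any comparison.

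Both NOD libraries lay above B6 in 442 members (67.0%), where 39.2% of all 14280 genes tested did, and both lay below B6 in 84 members (12.7%), where 38.1% of all genes did. All 4 other libraries lay above B6 in 321 members (48.6%), where 20.7% of all genes did.

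Tested gene by gene, few members passed. In limma, with adjusted p-values over all 14280 genes, 27 members were higher and 1 was lower in NOD than in B6, which is 4.09% and 0.152% of members, where 1.54% of all genes were called higher and 1.59% lower. The median SE of a member's log2 difference was 0.50, and the smallest difference called among members was 1.73, well above the median of 0.63. A shift of the size of the chromosome's median was thus too small to be called for a single gene in this fit. In NOD against NZB, 2 members were higher and 2 lower, 0.303% of members each, where 0.273% and 0.343% of all genes were. In NOD against v6.5, 6 were higher and 3 lower, 0.909% and 0.455% of members, where 0.98% and 0.672% of all genes were. In both comparisons the share of members called was near that of all genes. In NZB against B6 limma called 0 members in either direction, where 0.056% of all genes were higher and 0.084% lower. At an unadjusted limma p under 0.05, 57 members were higher and 18 lower, where 4.52% and 4.73% of all genes were. There edgeR called 14 members higher and 4 lower, with 0.903% and 1.16% of all genes called, and DESeq2 called 7 and 4, with 0.525% and 0.581% of all genes. In v6.5 against B6 limma also called 0 members, where 0.007% of all genes were higher and 0.0% lower. At an unadjusted limma p under 0.05, 23 members were higher and 3 lower in v6.5, where 0.7% and 1.51% of all genes were. Neither edgeR, which called 0.07% of all genes higher and 0.161% lower, nor DESeq2, which called 0.042% and 0.126%, called any member (0 and 0). The smallest limma difference called in any gene was 5.89 in this comparison. It was 2.85 in NZB against B6, which also had 1 library on each side. The median SE of a member's difference was 0.575 in both. A shift of 0.56 was thus too small to be called for a single member here. The number called depends on the fit. In NOD against B6 edgeR called 69 members higher and 6 lower, with 3.35% and 4.74% of all genes called. DESeq2 called 57 and 2, with 2.42% and 2.51% of all genes, and limma without the NZB library called 64 and 4, with 2.97% and 3.29% of all genes. With no filter on low reads limma called 0 members, although it called 5.77% of the 20526 genes then tested, and 120 members were higher and 7 lower at an unadjusted p under 0.05, where 5.53% and 11.1% of all genes were.

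The 27 members higher in NOD than in B6 were spread over the chromosome, the first by position being Ankrd10 (start 11611581, mm9) and the last Chmp1a (start 125728161), a subunit of the ESCRT-III membrane-cutting machinery. Dusp4, a phosphatase of MAP kinases, had 205.7 and 187 in NOD, 221.3 in NZB and 23 in v6.5, against 14.1 in B6, where only 10 reads were counted. NZB was thus as high as NOD for Dusp4, and v6.5 and B6 were low. The other 27 of the 28 called members had at least 20 reads in B6.

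A group of neighbours around Bst2 was called together. Gtpbp3, which modifies mitochondrial transfer RNA, had 496.7 and 482 in NOD, 342.8 in NZB, 173.1 in v6.5, against 101.3 in B6. Bst2, or tetherin, an interferon-induced membrane protein that holds budding viruses at the cell (Entrez Gene 69550, minus strand, 74058161 to 74061336), had 2689 and 1019 in NOD, 329 in NZB, 353 in v6.5, against 246 in B6. Mvb12a, a subunit of the ESCRT-I sorting complex whose start is at 74066829 on the other strand, had 1338 and 899.5 in NOD, 453 in NZB, 396.2 in v6.5, against 198.4 in B6. All 3 were lowest in B6, and the NOD lines were above the other 3 libraries in each. The log2 difference of Bst2 was 2.74 (SE 0.56, limma adjusted p = 0.0257) and the lines of NOD differed from each other more for Bst2 than for its neighbours. Gpr124, a receptor that acts in Wnt7 signalling in brain vessels, had 449.5 and 233 in NOD, 28.8 in NZB, 21.6 in v6.5, against 28.1 in B6. Got1l1, related to a glutamate transaminase and placed 112 in the order of members where Gpr124 is placed 109, had 1306 and 363.8 in NOD, 170.9 in NZB, 81.1 in v6.5, against 83 in B6. For both genes v6.5 was close to or below B6 while both NOD lines were above it. Further along, Mlycd, the malonyl-CoA decarboxylase, Hsdl1 and Cotl1, which binds actin filaments, placed 570, 574 and 579 in the order of members, were called with log2 differences of 2.86, 2.50 and 2.60.

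**Figure D4:**
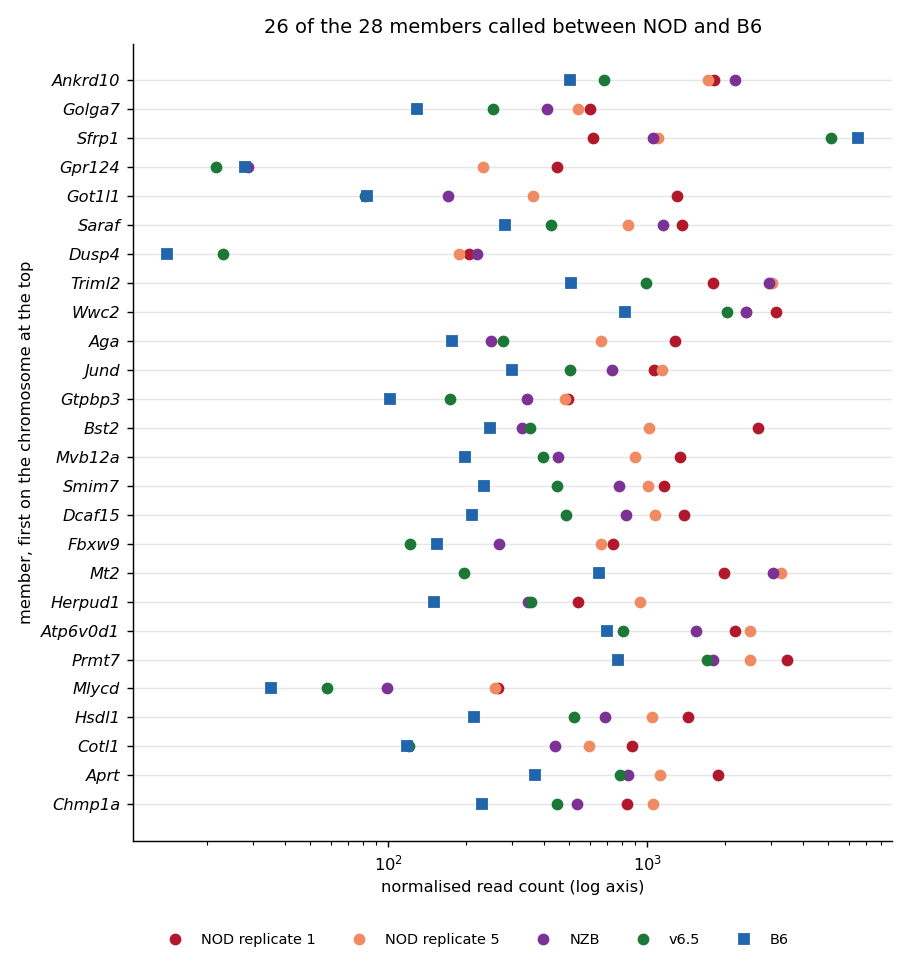
Normalised reads (horizontal log axis) of 26 of the 28 members called between NOD and B6 (vertical axis, in order along the chromosome from the top), 1 point per library with B6 as squares. B6 is the lowest library in most, Sfrp1 is the exception in which B6 is the highest, at 6513, and for Gpr124, Got1l1, Fbxw9 and Mt2 v6.5 lies below B6.

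Sfrp1, a secreted antagonist of Wnt signalling (Entrez Gene 20377, 24521974 to 24560104), went against the chromosome. It had 620 and 1106 normalised reads in NOD replicates 1 and 5, 1051 in NZB and 5119 in v6.5, against 6513 in B6. The log2 difference was -2.97 from B6 (SE 0.46, limma adjusted p = 0.00735) and -2.63 from v6.5 (limma adjusted p = 0.0183), with NOD and NZB in one range and v6.5 and B6 in another. Tex15, a gene of meiosis in male germ cells, had 495 and 678 in NOD, 551 in NZB, 2429 in v6.5 and 1672 in B6 and was called lower in NOD than in v6.5 (log2 difference -2.07, limma adjusted p = 0.035).

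In the metallothionein pair v6.5 lay below B6, against the direction of the chromosome. Mt2 had 1976 and 3289 normalised reads in NOD replicates 1 and 5 and 3049 in NZB, against 196 in v6.5 and 650 in B6. Mt1, whose sequence is related and whose reads may in part be shared with Mt2, had 3136 and 6451 in NOD and 5695 in NZB, against 637 in v6.5 and 1942 in B6. NOD and NZB did not overlap with v6.5 and B6 in either gene. Mt2 was higher in NOD than in v6.5 by 3.69 (SE 0.44, limma adjusted p = 0.00421) and than in B6 by 1.97 (limma adjusted p = 0.0375). Mt1 was higher than in v6.5 by 2.82 (limma adjusted p = 0.0187), and its difference of 1.21 from B6 did not pass (limma adjusted p = 0.212). Between v6.5 and B6 the differences were -1.72 and -1.61, neither called. Fbxw9, an F-box protein, Cotl1, Gpr124 and Plcg2, a phospholipase C of immune cell signalling, were the other members higher in NOD than in v6.5. For Plcg2 the values were 2546 and 1631 in NOD, 863 in NZB, 513 in v6.5 and 752 in B6.

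In each of the 4 members called between NOD and NZB, NZB was the lowest or the highest library. Tdrp, a testis development related gene, had 2219 and 1898 in NOD, against 281 in NZB, with 1289 in v6.5 and 1274 in B6 (log2 difference of NOD from NZB 2.86, limma adjusted p = 0.00855). Gm4975, a predicted gene, had 298.7 and 576.4 normalised reads in NOD, against 8.24 in NZB, with 467.9 in v6.5 and 88.7 in B6. Kbtbd11, a Kelch and BTB domain gene, had 9.15 and 2.91 in NOD, which are 6 reads in each library, against 426 in NZB, with 176 in v6.5 and 56.3 in B6. Ushbp1, a binding protein of the Usher syndrome 1C protein, had 3.05 and 0.973 in NOD, which are 2 reads in each library, against 274.9 in NZB, with 32.5 in v6.5 and 9.86 in B6. NZB was the lowest library in Tdrp and Gm4975 and the highest in Kbtbd11 and Ushbp1. In Kbtbd11 and Ushbp1 both NOD lines were below every other library. Kbtbd11 was also called lower in NOD than in v6.5 (log2 difference -4.81), a comparison without NZB. With so few reads in NOD the fitted log2 differences of Kbtbd11 and Ushbp1 depend on the pseudocount.

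By function, members were described in 10 lists chosen with earlier results known. Each is given by its median difference less that of the other autosomes. The medians of all members were 0.63 for NOD against B6 and 0.56 for v6.5 against B6. For NOD against B6, 78.3% of members and 50.0% of genes of the other autosomes lay above 0. In that comparison 4.09% of members were called higher and 0.152% lower, where 1.54% and 1.59% of all genes were. For v6.5 against B6, 86.4% of members lay above 0. Translation and transfer RNA genes had the highest median for NOD against B6, 1.21, with 12 of 12 above 0, of which 1, Gtpbp3, passed the test. Eif4ebp1, a repressor of cap-dependent translation, had 3314 and 4479 normalised reads in NOD, 1595 in NZB, 3064 in v6.5, against 1638 in B6. Kars, the lysyl-tRNA synthetase, had 2266 and 3057 in NOD, 1966 in NZB, 3881 in v6.5, against 1793 in B6. B6 lay below both NOD lines in these genes, although neither passed the test.

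Secretory and lysosomal genes had a median of 0.89 with 26 of 28 above 0, and Golga7, Atp6v0d1, a subunit of the proton pump of lysosomes, and Chmp1a passed. Atp6v0d1 had 2179 and 2486 in NOD, 1549 in NZB, 809 in v6.5, against 701 in B6. Mitochondrial genes outside the respiratory chain had 0.90 with 17 of 21 above 0, and Mlycd passed. Slc25a4, the ADP and ATP carrier, had 4225 and 2401 in NOD, 1892 in NZB, 1936 in v6.5, against 895 in B6, and did not pass. Tomm20, the import receptor of the outer membrane, had 3972 and 3268 in NOD, 3513 in NZB, 2058 in v6.5, against 1502 in B6. Prdx2, a peroxiredoxin kept on this list although it is mainly cytosolic, went the other way. It had 1219 and 1447 in NOD, 1132 in NZB, 1823 in v6.5, against 1785 in B6.

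Metabolic enzymes and transporters had a median of 0.79 (18 of 22 above 0, with Aprt and Mt2 called higher), and immune genes one of 0.82 (10 of 11 above 0, with Bst2 called higher). Ubiquitin and proteasome genes had 0.67 (14 of 17 above 0), and Herpud1, which acts in the degradation of proteins from the endoplasmic reticulum, was among the members that passed. RNA processing genes had 0.56 with 22 of 27 above 0 and none called. Growth factor and kinase signalling genes had 0.43 with 19 of 25 above 0, with Dusp4 and Jund, a subunit of the transcription factor AP-1, among those called higher and Sfrp1 called lower. DNA replication, repair and segregation genes had 0.34 with 19 of 26 above 0 and none called.

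Chromatin and transcription regulators were the list nearest to 0 for NOD against B6, with a median of 0.10 and 18 of 34 above 0, none called. Ctcf, which insulates chromatin domains, had 2147 and 2684 in NOD, 2429 in NZB, 4017 in v6.5, against 3490 in B6. Gatad2a, a subunit of the NuRD complex, had 3067 and 3496 in NOD, 2444 in NZB, 4631 in v6.5, against 3690 in B6. B6 was above both NOD lines in these genes and v6.5 was the highest. For v6.5 against B6 the same list had 0.42 with 29 of 34 above 0. The other lists lay between 0.23 (growth factor and kinase signalling, 19 of 25) and 0.78 (translation, 11 of 12) for v6.5 against B6, a narrower range than that for NOD. Whether any list differs from the rest of the chromosome was not tested.

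**Figure D5:**
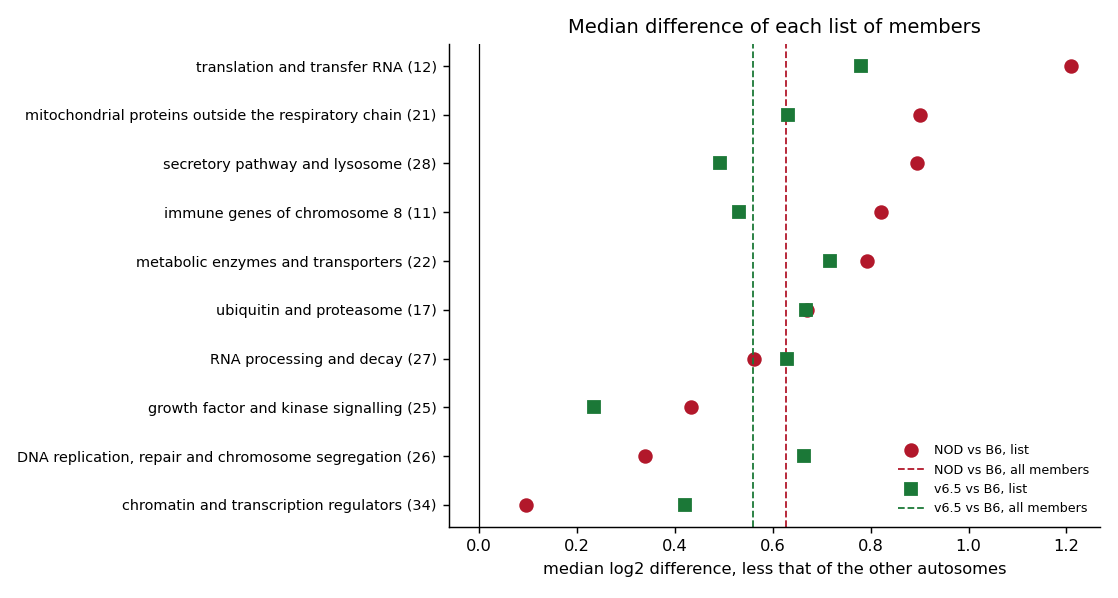
Median log2 difference (horizontal axis, less that of the other autosomes) of the 10 lists of members (vertical axis, number of members in brackets) for NOD vs B6 (circles) and v6.5 vs B6 (squares), with the medians of all members as dashed lines. The lists run between 0.10 and 1.21 for NOD vs B6 and between 0.23 and 0.78 for v6.5 vs B6.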

How the data were processed

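Poly-dT selected, strand-kept RNA of 5 ES cell libraries was read as single-end 50-bp sequences. The authors aligned reads to mm9 with STAR (2.2.0c in the submitters' processing notes), counted them over RefSeq exons with HOMER on the gene's strand and called differences with edgeR. The deposited signal values are counts per gene rescaled to equal library totals, neither divided by length nor logged, and dividing values below 3000 by the smallest step of a library gave whole reads (within 0.05) for 100% of them, so reads were recovered in this way. Deposited log2 fold changes and deposited p-values and FDR values of the authors' own comparisons were not used.

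Values were divided by TMM factors (edgeR 4.0.16: 1.03 and 1.17 for NOD replicates 1 and 5, 1.23 for NZB, 1.04 for v6.5, 0.642 for B6) after filterByExpr. The plan held edgeR's quasi-likelihood test for counts and limma-trend for rescaled values, so limma 3.58.1 on log2(value + 1) was the test, with 5 libraries, 1 mean per strain and 1 residual degree of freedom. The spread of a lone library is taken to equal that between the NOD lines. P-values were adjusted by Benjamini-Hochberg over every gene tested, threshold 0.05, and fold changes on this scale understate low genes. edgeR and DESeq2 1.42.0 on recovered reads, other scalings, filters, pseudocounts and left-out libraries were alternatives. Scripts were tested on simulated data. Named genes were up to 10 called members of largest difference in each direction for NOD against B6 and up to 5 for other comparisons, the 10 of highest level, those at the limit of 20, and from each list its called members and up to 4 of highest level. Neighbours, a marker list and position were also used to pick genes after values were seen, and the bands by transcript GC and the promoter motif were added then. Members and lists were chosen with earlier results of these data known. Positions are mm9 as deposited, except promoters (RefSeq, GRCm38.p6). Transcript GC came from GENCODE transcripts matched by symbol. Strand was used in counting. Ankrd10 and Fbxw9 overlap a microRNA gene on their own strand. The values of 2 called members are not reported here. R 4.3.3 was used.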

Additional observations from a re-analysis of the deposited data

Results flagged for a closer look

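In 4 members the NOD mean and NZB lay on opposite sides of B6, and the direct comparison of NOD with NZB passed the limma test, while none of the differences from B6 did. The log2 difference of NOD from NZB was 5.49 for Gm4975 (limma adjusted p = 0.00305), made of 2.21 for NOD and -3.28 for NZB, each against B6. It was 2.86 for Tdrp (limma adjusted p = 0.00855), made of 0.69 and -2.18. It was -6.61 for Ushbp1 (limma adjusted p = 0.0168), made of -1.94 and 4.67, with 2 reads in each NOD library. It was -6.08 for Kbtbd11 (limma adjusted p = 0.00995), made of -3.19 and 2.90. NZB is 1 library, so these are differences from that library. No group had 4 libraries, so a library far from the rest of its group could not be looked for.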

How the results depend on the processing

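No paired analysis was possible because only the NOD libraries carry a number in their labels, so fewer than 2 numbers can be shared between strains. The median difference of chromosome 8 changed little under every alternative run, which were chosen for it after seeing the data: 0.60 to 0.66 for NOD against B6, 0.31 to 0.35 for NOD against NZB, 0.05 to 0.13 for NOD against v6.5, 0.31 to 0.33 for NZB against B6 and 0.54 to 0.57 for v6.5 against B6. Moves were judged against the SD over the other 18 autosomes.

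The level of a library depends on which others it is set against. Leaving out 1 library at a time gave 0.14 to 0.37 for NOD replicate 1, 0.18 to 0.39 for NOD replicate 5, -0.31 to -0.060 for NZB, 0.04 to 0.24 for v6.5 and -0.62 to -0.51 for B6. With the deposited scaling the level was 0.21 in NOD replicate 5, -0.27 in NZB and 0.086 in v6.5, and in NOD against B6 that scaling moves the all-gene median by 0.77 (log2).

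Counts of called members depended on the fit. Each is followed by the percent of all genes called. For NOD against B6 (28 called, 3.13%) DESeq2 gave 59 (4.94%), edgeR 75 (8.09%), the deposited scaling 153 (8.37%), a fit of the NOD and B6 libraries alone 67 (6.19%), v6.5 joined to B6 71 (9.23%), and no filter on low reads 0 (5.77%). Leaving out NZB gave 68 (6.26%) and leaving out v6.5 gave 34 (3.41%). For NOD against NZB (4 called, 0.616%) DESeq2 gave 9 (1.51%), edgeR 17 (2.58%) and no filter 0 (6.24%), and leaving out 1 library gave 4 (0.721%, without v6.5) to 7 (0.921%, without B6). For NOD against v6.5 (9 called, 1.65%) DESeq2 gave 24 (3.26%), edgeR 41 (5.86%) and no filter 0 (5.79%), and leaving out 1 library gave 17 (3.20%, without B6) to 29 (4.18%, without NZB). For NZB against B6 (0 called, 0.14%) DESeq2 gave 11 (1.11%), edgeR 18 (2.07%) and the deposited scaling 12 (0.924%). Keeping genes otherwise left out by name gave 1 (0.14%), which is not a member. For v6.5 against B6 (0 called, 0.007%) keeping those genes also gave 1 (0.007%), again not a member, and no other setting changed the count. With no filter, limma left 127 of 660 members at an unadjusted p under 0.05 for NOD against B6, where 16.6% of all genes were. It left 53 of 660 for NOD against NZB, where 11.5% of all genes were. For NOD against v6.5 it left 61 of 660, where 15.1% of all genes were. The cause of these changes was not tested. Counts without a NOD library were not run, since no residual degree of freedom is left. Of 34 calls of named genes, edgeR and DESeq2 on recovered reads kept all 34, the deposited scaling lost 2, v6.5 joined to B6 lost 2 of 21, and no filter lost all 34. None turned direction. The smallest difference (log2) that limma called in any gene was 1.69 for NOD against B6, 2.11 for NOD against NZB, 1.85 for NOD against v6.5, 2.85 for NZB against B6 and 5.89 for v6.5 against B6.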
